A study of Homo sapiens with 10 samples.

Results

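The genes described here were the receptor of hepatocyte growth factor (HGF), its ligand, the proteins that bind the activated receptor, and the protease and inhibitor that govern activation of the ligand, which are MET, HGF, GAB1, GRB2, SHC1, SOS1, CBL, PTPN11, ST14 and SPINT2. They were chosen by name, and all probes annotated to them were taken, 12 probes of the 24105 on the arrays that had an intensity for every sample. RNA was measured in MDA-MB-435 cells, which the sample labels give as a melanoma line, on 10 Illumina Human-8 BeadChip arrays, 2 for each of 5 groups. The groups were cells transduced with integrin beta-4 (ITGB4, the hemidesmosome integrin chain) so that they express it stably, untreated cells, and cells treated with HGF for 1 h, 6 h or 24 h. The HGF dose and whether the transduced cells were a pool or a clone are not given in the sources used here, all groups shared the parental line, and no array of cells with an empty vector was analysed here. Untreated cells served as the reference for HGF treatment as well as for ITGB4.

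HGF is secreted as an inactive single chain and is cut into its active form by serine proteases, among them matriptase, which ST14 encodes. SPINT2 encodes a Kunitz-type inhibitor of these proteases. Active HGF binds MET, a receptor tyrosine kinase, whose phosphorylated tail recruits GRB2, SHC1 and GAB1. GRB2 carries SOS1, the exchange factor that loads RAS, to the membrane, GAB1 brings in the phosphatase SHP2 (encoded by PTPN11), which sustains ERK signalling, and CBL ubiquitinates the receptor and sends it to degradation. HGF-MET signalling is known for driving motility and growth of epithelial and melanoma cells. Arrays read transcript levels only, so the phosphorylation steps through which these proteins act were not measured.

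Every level below is a quantile-normalised signal in arbitrary units, read from a scanner intensity that is the mean brightness of the 15 to 63 beads behind a member probe. A probe was detected on an array where its detection score, which runs from 0 to 1, was 0.99 or more, and the normalised signal at this limit was 89.6 (the median over arrays, which ran from 86.6 to 96.5). Per array, 42.4% to 49.4% of probes were detected. The ITGB4 probe read 6788.1 and 5022.9 on the arrays of ITGB4-transduced cells and 59.6 to 63.9 on the other 8 arrays, where it was not detected. Of 18 measured melanocyte genes, 12 were detected on all 10 arrays, among them MITF, PMEL, MLANA, TYR and SOX10, while SLC45A2, OCA2, KIT and TRPM1 were detected on none. Of 14 epithelial genes, 2 were detected on all arrays (KRT18 and ESRP1) and CDH1 and EPCAM on none, and of 9 fibroblast and 7 immune genes 2 each were detected on all arrays (DCN and LUM, CD68 and LYZ). On 4 arrays, replicate 1 of untreated cells and of each HGF time, the scores of undetected probes lay far lower than on the other 6 (25th percentile 0.000114 to 0.00353, against 0.055 to 0.217), and differences are therefore also given within these low-score arrays and within the high-score arrays, with 1 array a group.

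Of the 12 probes, 7 were detected on at least 1 array and were tested. They stood for 5 of the 10 genes, MET, GRB2, SHC1, SOS1 and PTPN11. The share of 58.33% kept was near the 58.2% of all probes on the arrays. Only 4 of them, the probes of GRB2, PTPN11 and SHC1 (1 common probe and 1 isoform probe), were detected on 9 or 10 arrays. The other 3, of MET, SOS1 and a second SHC1 isoform, were detected on 6, 2 and 6 arrays. These 3, and the isoform probe among the 4, were each detected on 1 replicate and not on the other in at least 1 group.

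HGF, ST14 and SPINT2 were not detected on any array. HGF, the ligand, read 69.2 and 63.7 in ITGB4-transduced cells, 53.2 and 59.0 in untreated cells, 56.8 and 59.8 after 1 h of HGF, 58.6 and 60.2 after 6 h, and 62.9 and 64.5 after 24 h. All 10 values lay below the detection limit and the highest detection score was 0.466. The probe of ST14, the HGF-cleaving protease, ranged over the 10 arrays between 50.3 and 59.5 (highest score 0.189), and that of SPINT2, the inhibitor, between 47.4 and 57.5 (highest score 0.264). Signals of this size give only an upper bound on the transcript, so no order of the groups was read from them. Of 12 other genes listed with HGF processing on the arrays, 5 were detected on at least 1 array. HPN, the HGF-activating protease hepsin, was detected on 5 of 10 arrays (73.9 to 112.5), SPINT1, an inhibitor related to SPINT2, on 4 (70.1 to 102.4), and F12, coagulation factor XII, on all 10 (481.8 to 683.6). HPN and SPINT1 lay near the limit. In untreated and HGF-treated cells, SPINT1 read 70.1 to 74.5 on low-score and 90.9 to 102.4 on high-score arrays. HPN read 82.1 to 112.5 and 73.9 to 85.6 on them, and the part of array class in their detection was not tested.

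MET, the receptor, was close to the detection limit. Its probe (GI_4557746-S) read 94.6 and 103.6 in ITGB4-transduced cells, 106.9 and 84.4 in untreated cells, 99.5 and 78.5 after 1 h of HGF, 112.1 and 107.9 after 6 h, and 108.9 and 83.3 after 24 h. It was detected on 6 of 10 arrays, on both 6 h arrays and on 1 of 2 arrays in each other group. In untreated cells and at 1 h and 24 h, the array that detected it was the low-score array. The low-score array also read higher at 6 h, and the part of array class in these values was not tested. The 6 h arrays read above both untreated arrays, while 1 h and 24 h overlapped with untreated cells. Ordered by mean, the groups ran as 6 h of HGF (110 ± 2.97, SD, n = 2 as for all means here), ITGB4 (99.1 ± 6.34), 24 h (96.1 ± 18.1), untreated (95.7 ± 15.9) and 1 h (89.0 ± 14.9). Apart from 6 h and ITGB4, whose arrays did not overlap, neighbours in this order were closer than the spread of their arrays. In bulk RNA such as this, fewer cells with a transcript and less transcript per cell cannot be told apart.

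The promoter of MET is shown because the receptor decides whether a cell can answer HGF and because MITF, the melanocyte transcription factor detected on all 10 arrays, binds the E-box letters CACGTG. The sequences are from RefSeq (GRCh38.p14, plus strand). The window chr7:116671946-116672195 holds the 250 bases before the annotated transcription start, with capitals marking the GC box GGGCGG on either strand. The stretch chr7:116672187-116672216 spans the start itself, with capitals marking the E-box.
MET promoter window: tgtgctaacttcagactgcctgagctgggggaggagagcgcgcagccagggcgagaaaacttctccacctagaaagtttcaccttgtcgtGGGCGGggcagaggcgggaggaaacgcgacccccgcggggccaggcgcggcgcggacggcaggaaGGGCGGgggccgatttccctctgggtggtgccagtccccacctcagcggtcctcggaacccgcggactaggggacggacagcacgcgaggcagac
MET E-box: gaggcagacagaCACGTGctggggcgggca
The GC boxes begin 160 and 95 bases before the start, and a GC box was present in 42.6% of the 35116 promoter windows of 250 bases in the same table. The E-box begins at base 4 of the transcript, and CACGTG was present in 7.26% of windows that reach 50 bases past the start. A match of letters describes the sequence, and binding was not measured.

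**Figure D1:**
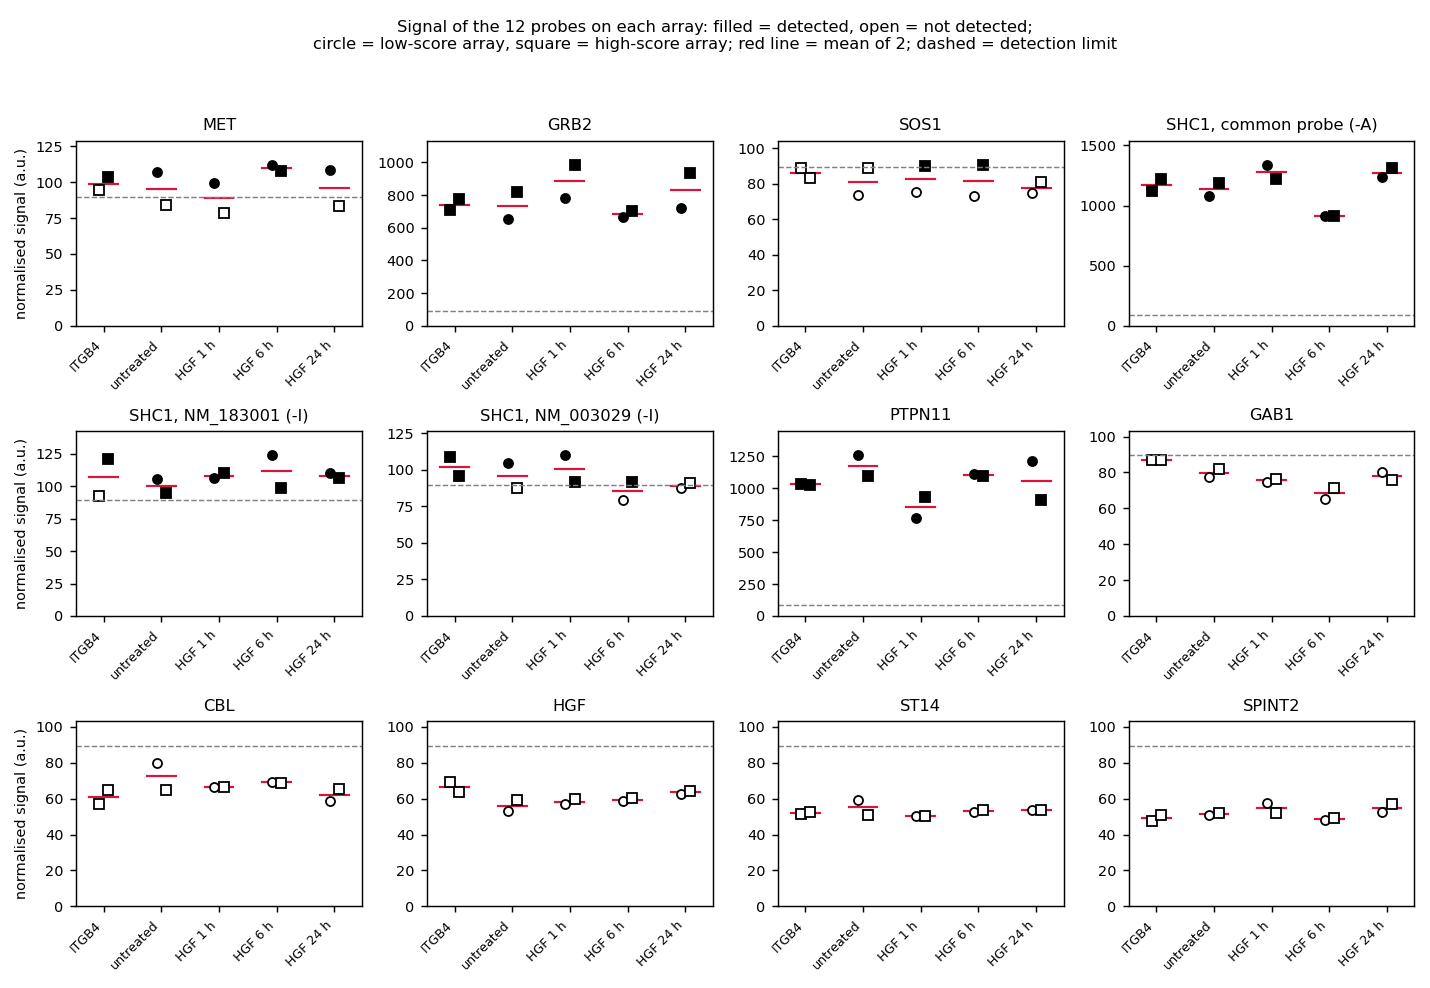
Quantile-normalised signal (arbitrary units, vertical axis from 0) of each of the 12 probes in ITGB4, untreated, HGF 1 h, HGF 6 h and HGF 24 h arrays. Filled symbols are detected, open symbols not detected, circles low-score and squares high-score arrays, red lines the mean of 2 arrays and dashed lines the detection limit of 89.6. MET lies around the limit, GAB1, CBL, HGF, ST14 and SPINT2 stay below it on all 10 arrays, and the common SHC1 probe is lowest on both 6 h arrays (914.1 and 914.4).

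GRB2, the adaptor that links the receptor to SOS1, was detected on all 10 arrays. Its probe (GI_34452726-S) read 708.9 and 774.1 in ITGB4-transduced cells, 654.0 and 818.1 in untreated cells, 783.8 and 984.5 after 1 h of HGF, 665.8 and 700.6 after 6 h, and 721.5 and 938.0 after 24 h. No group lay wholly above or below untreated cells. In each HGF group and in untreated cells the high-score array read higher than the low-score array, and no part of this in the means was tested.

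SHC1, the adaptor that is phosphorylated by receptor kinases and then binds GRB2, had 3 probes. The probe shared by its transcripts (GI_34147725-A) read 1125.0 and 1223.0 in ITGB4-transduced cells, 1077.6 and 1190.3 in untreated cells, 1338.0 and 1224.2 after 1 h of HGF, 914.1 and 914.4 after 6 h, and 1234.6 and 1313.9 after 24 h. Both 6 h arrays read below all 8 others, while both 1 h and both 24 h arrays read above both untreated arrays. The group means were 1174 ± 69.2 in ITGB4-transduced cells, 1134 ± 79.7 in untreated cells, 1281 ± 80.5 at 1 h, 914 ± 0.191 at 6 h and 1274 ± 56.1 at 24 h. Among all 14018 tested probes, 11.1% had their 6 h arrays below all the others. Separately, 6.81% had 1 h and 6 h arrays on opposite sides of both untreated arrays, in either direction. The share of probes with the whole shape, 24 h arrays included, is not given here.

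The other SHC1 probes each match 1 transcript. The probe of NM_183001 (GI_33859842-I), the transcript of the long p66 isoform, read 92.9 and 121.3 in ITGB4-transduced cells, 106.0 and 94.8 in untreated cells, 106.2 and 110.4 after 1 h of HGF, 124.0 and 99.0 after 6 h, and 110.4 and 106.2 after 24 h, and was detected on 9 of 10 arrays. The 6 h arrays, lowest on the common probe, were not the lowest here. The probe of NM_003029 (GI_34147725-I), the transcript of the p52 isoform, read 108.6 and 96.0 in ITGB4-transduced cells, 104.6 and 87.5 in untreated cells, 110.0 and 91.5 after 1 h, 79.2 and 91.6 after 6 h, and 87.7 and 90.7 after 24 h. It was detected on 6 of 10 arrays and on neither 24 h array. The mean was 89.2 ± 2.14 at 24 h and 96.0 ± 12.1 in untreated cells, of which 1 of 2 arrays detected the probe (limma adjusted p = 0.98). The difference was -0.25 within the low-score arrays and 0.05 within the high-score arrays (log2, 24 h minus untreated). No order of these groups was read. Over the 10 arrays the p66 and p52 probes had Pearson correlations of log2 signal with the common probe of -0.0585 and 0.364. These are given as a description of points that share arrays. Both isoform probes read near the detection limit (p66 92.9 to 124.0, p52 79.2 to 110.0). The correlations therefore cannot show whether the SHC1 probes follow each other.

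The windows before both annotated start sites of SHC1 are shown because the gene was read through several transcripts and its common probe had the lowest 6 h signals. They are the 250 bases at chr1:154974377-154974626 and at chr1:154970748-154970997 (GRCh38.p14, minus strand, RefSeq), and which of them serves which probe was not determined. Capitals mark the GC box GGGCGG and the AP-1 letters TGANTCA, which the FOS and JUN factors downstream of ERK bind, each on either strand.
SHC1 start site 1: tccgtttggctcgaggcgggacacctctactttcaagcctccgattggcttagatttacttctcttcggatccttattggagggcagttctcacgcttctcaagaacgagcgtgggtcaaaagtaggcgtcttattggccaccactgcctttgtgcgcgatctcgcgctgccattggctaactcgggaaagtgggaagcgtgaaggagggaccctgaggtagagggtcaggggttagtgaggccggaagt
SHC1 start site 2: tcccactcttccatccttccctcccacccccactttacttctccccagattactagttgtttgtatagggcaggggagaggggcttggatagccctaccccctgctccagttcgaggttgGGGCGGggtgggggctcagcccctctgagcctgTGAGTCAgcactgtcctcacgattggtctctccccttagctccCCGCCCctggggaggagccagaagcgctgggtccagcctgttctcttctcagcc
The window of start site 2 holds GC boxes that begin 130 and 54 bases before the start and an AP-1 match that begins 97 bases before it. The window of start site 1 holds none of these letters. AP-1 letters were present in 6.57% of the 35116 windows.

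GAB1, the docking protein that prolongs MET signalling, was not detected on any array. Its signals were 87.1 and 86.7 in ITGB4-transduced cells, 77.6 and 81.7 in untreated cells, 74.7 and 76.4 after 1 h of HGF, 65.4 and 71.4 after 6 h, and 80.1 and 75.6 after 24 h, with a highest score of 0.986. The highest score was that of ITGB4 replicate 2, whose own array had a detection limit of 88, while ITGB4 replicate 1 (score 0.871) scored below untreated replicate 2 (0.917).

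SOS1, the RAS exchange factor, was detected on 2 of 10 arrays, the high-score arrays of 1 h and 6 h. Its probe read 88.9 and 83.3 in ITGB4-transduced cells, 73.5 and 89.2 in untreated cells, 75.3 and 90.2 after 1 h of HGF, 73.1 and 90.7 after 6 h, and 74.9 and 80.8 after 24 h. The values split by array class and not by group, with 73.1 to 75.3 on the low-score arrays and 80.8 to 90.7 on the high-score arrays.

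PTPN11, which encodes the phosphatase SHP2, was detected on all 10 arrays. Its probe (GI_33356176-S) read 1031.2 and 1028.2 in ITGB4-transduced cells, 1257.4 and 1095.0 in untreated cells, 766.4 and 933.0 after 1 h of HGF, 1110.0 and 1098.8 after 6 h, and 1211.5 and 904.0 after 24 h. Both 1 h arrays and both ITGB4 arrays read below both untreated arrays, while 1 of the 24 h arrays read between the untreated arrays and the other below them. Ordered by mean, untreated cells (1176 ± 115) were followed by 6 h (1104 ± 7.93), 24 h (1058 ± 217), ITGB4 (1030 ± 2.11) and 1 h (850 ± 118), and apart from ITGB4 and 1 h, whose arrays did not overlap, neighbours in this order were closer than the spread of their arrays. CBL, the ubiquitin ligase that marks MET for degradation, was not detected on any array, with signals of 57.2 to 79.9 and a highest score of 0.811.

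After 1 h of HGF, 0 of the 7 tested member probes were called at an adjusted p under 0.05 with limma, the fit across all genes on the arrays. The same was true of all probes (percent called 0%), and an ordinary pooled-variance test in place of limma's called no member in any of the 6 comparisons. Of all 14018 probes, that test called 0 at 1 h, 6 h and 24 h and 0 for 6 h against 1 h. It called 1 with ITGB4 and 107 for 24 h against 6 h, so it says little about the members. At 1 h, 1 of the 7, PTPN11, and 13.5% of all probes had an unadjusted p under 0.05. PTPN11 differed by -0.47 ± 0.18 (log2, HGF 1 h minus untreated, SE, n = 2 arrays a group as in all comparisons, 95% interval -0.86 to -0.08, adjusted p = 0.28). The difference was -0.71 within the low-score arrays and -0.23 within the high-score arrays. GRB2 differed by 0.26 ± 0.19 (interval -0.14 to 0.67, adjusted p = 0.59), with 0.26 and 0.27 within the classes, the common SHC1 probe by 0.18 ± 0.15 (interval -0.15 to 0.51, adjusted p = 0.67) and MET by -0.11 ± 0.19 (interval -0.52 to 0.31, adjusted p = 0.88). For 3 of the 7 probes the 1 h and untreated arrays did not overlap, against 44.2% of all probes. The median difference of the 7 was 0.07, beside 0.04 over all probes.

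After 6 h of HGF, 0 of the 7 were called, with 1.9% of all probes called (267 of 14018). No member had an unadjusted p under 0.05 either, against 16% of all probes. The common SHC1 probe came nearest, with -0.31 ± 0.15 (log2, HGF 6 h minus untreated, interval -0.64 to 0.02, adjusted p = 0.35 by limma), and with -0.24 and -0.38 within the low-score and the high-score arrays. MET differed by 0.21 ± 0.19 (interval -0.20 to 0.62, adjusted p = 0.70), with 0.07 and 0.35 within the classes. In the authors' background-subtracted value table, where the same samples read 42.2 and 47.3 at 6 h and 32.9 and 12.9 in untreated cells, the MET difference was 0.85 once values under 18.8 were raised to that floor, and still not called (limma adjusted p = 0.29). GRB2 differed by -0.10 ± 0.19 and PTPN11 by -0.09 ± 0.18 (adjusted p = 0.90 and 0.91). The groups did not overlap for 2 of the 7, MET and the common SHC1 probe, against 44.6% of all probes.

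After 24 h of HGF, 0 of the 7 were called, as for all probes (percent called 0%, with 5.71% of all probes and no member at an unadjusted p under 0.05). MET differed from untreated cells by 0.00 ± 0.19 (log2, HGF 24 h minus untreated, interval -0.41 to 0.41, adjusted p = 1). The common SHC1 probe differed by 0.17 ± 0.15 (interval -0.16 to 0.50), GRB2 by 0.17 ± 0.19 (interval -0.24 to 0.57) and PTPN11 by -0.17 ± 0.18 (interval -0.55 to 0.22), with adjusted p of 0.94 to 0.96 for these 3. The groups did not overlap for 2 of the 7, the common and the p66 probe of SHC1, against 29.6% of all probes.

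In ITGB4-transduced cells, 0 of the 7 were called, with 0.00713% of all probes called (1 of 14018). No member and 0.835% of all probes had an unadjusted p under 0.05. The 7 differences from untreated cells ran from -0.19 to 0.09 (log2, ITGB4 minus untreated), with MET at 0.06 ± 0.19 (interval -0.35 to 0.47) and PTPN11 at -0.19 ± 0.18 (interval -0.58 to 0.20), both with an adjusted p of 1. PTPN11 was the 1 member whose arrays did not overlap, against 25.7% of all probes. Both ITGB4 arrays were high-score arrays and 1 of the 2 untreated arrays was a low-score array, and the part of this in the differences was not tested.

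**Figure D2:**
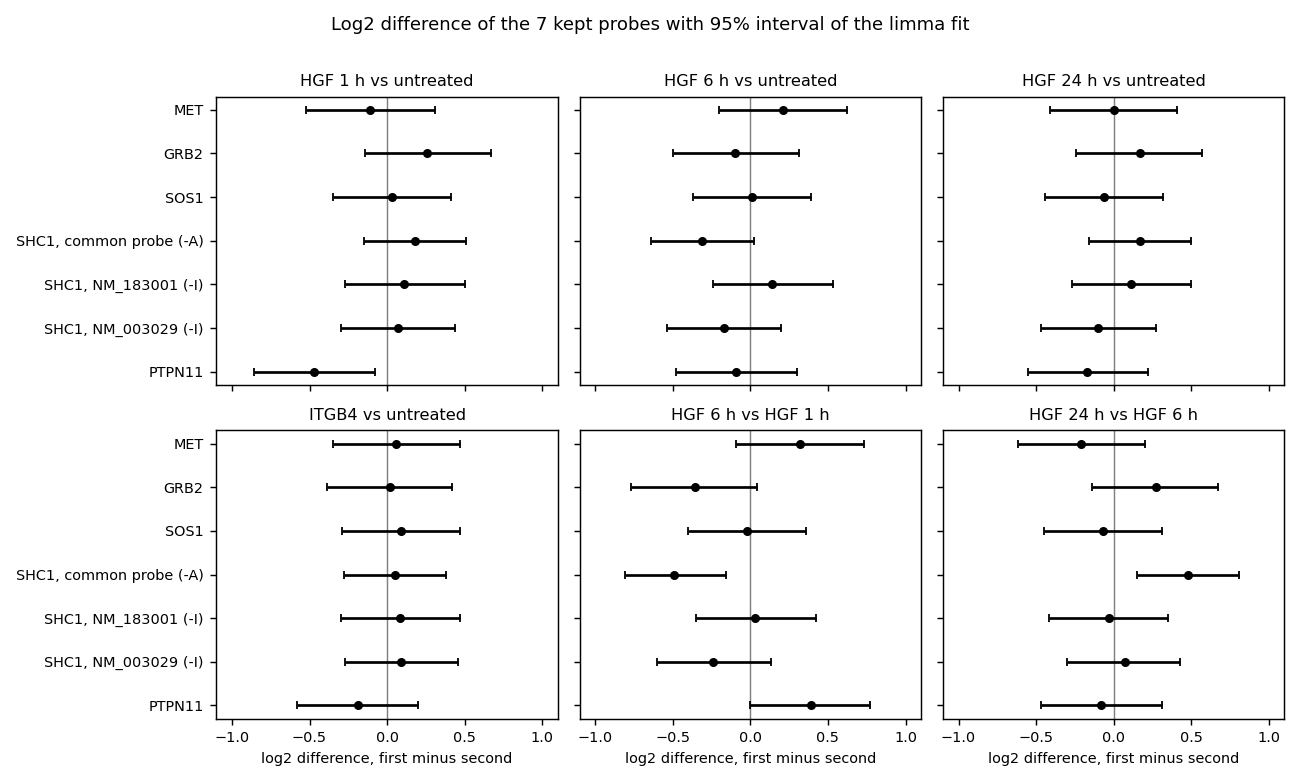
Log2 difference (horizontal axis, the group named first minus the group named second) of the 7 tested probes in 6 comparisons, with points for the limma estimate and bars for its 95% interval. Against untreated cells the interval of PTPN11 at 1 h (-0.86 to -0.08) leaves out 0, and between times those of the common SHC1 probe do (-0.49 at 6 h against 1 h, 0.48 at 24 h against 6 h), with no call after adjustment over 14018 probes.

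Between HGF times the common SHC1 probe had the smallest p of the members. It read 914.1 and 914.4 at 6 h, against 1338.0 and 1224.2 at 1 h, a difference of -0.49 ± 0.15 (log2, 6 h minus 1 h, interval -0.81 to -0.16, adjusted p = 0.087 by limma), with -0.55 and -0.42 within the low-score and the high-score arrays. At 24 h it read 1234.6 and 1313.9, against the same 6 h values, a difference of 0.48 ± 0.15 (24 h minus 6 h, interval 0.15 to 0.81, adjusted p = 0.073 by limma), with 0.43 and 0.52 within the classes. No member was called in either comparison, with 4.67% of all probes called between 6 h and 1 h and 8.31% between 24 h and 6 h, and the common SHC1 probe was the 1 member with an unadjusted p under 0.05 in each, against 20.5% and 21.3% of all probes. These SHC1 differences share the 6 h arrays, and both were called when array class or replicate number entered the limma fit as a block or when signals were floored at the detection limit (adjusted p = 0.031 to 0.045 for 6 h against 1 h and 0.025 to 0.028 for 24 h against 6 h). These settings are not separate support. Array class and replicate number split the untreated and HGF arrays in the same way. All signals of this probe lay above the floor, so its differences stayed at -0.49 and 0.48. Only the standard error of the fit fell, from 0.15 to 0.08. The 2 isoform probes of SHC1 differed by 0.03 ± 0.18 (p66) and -0.24 ± 0.17 (p52) between 6 h and 1 h, with adjusted p of 0.96 and 0.51.

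Of the other members, PTPN11 differed by 0.39 ± 0.18 between 6 h and 1 h (log2, 6 h minus 1 h, adjusted p = 0.25) and GRB2 by -0.36 ± 0.19 (adjusted p = 0.30). MET differed by 0.32 ± 0.19 (interval -0.09 to 0.73, adjusted p = 0.40). The arrays of 6 h and 1 h did not overlap for 4 of the 7 probes, against 48.5% of all probes, and those of 24 h and 6 h for 2 of the 7, against 42.8%. SOS1 stayed within -0.07 and 0.09 in all 6 comparisons by its estimates, each with a standard error of 0.18.

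**Figure D3:**
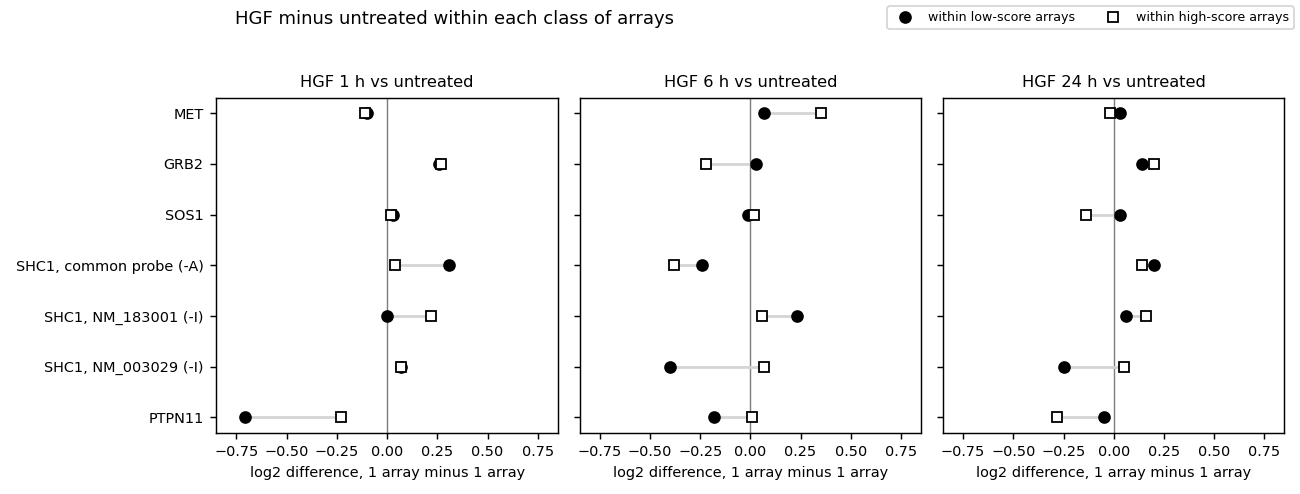
Log2 difference (horizontal axis, HGF minus untreated, 1 array against 1 array) of the 7 tested probes within the low-score arrays (filled circles) and within the high-score arrays (open squares) at 1 h, 6 h and 24 h. The common SHC1 probe is below 0 in both classes at 6 h (-0.24 and -0.38) and PTPN11 in both at 1 h (-0.71 and -0.23), while the p52 probe of SHC1 takes opposite signs at 6 h (-0.40 and 0.07).

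PTPN11, the member with the smallest p against untreated cells, was set beside all other tested genes. The genes whose log2 signal followed it most closely over the 10 arrays were CLDN12, a claudin (Pearson r = 0.986), SUCLA2, a subunit of mitochondrial succinyl-CoA ligase (r = 0.981), and UGP2, which makes UDP-glucose (r = 0.978). CLDN12, for example, read 303.1 and 403.2 after 1 h of HGF, against 600.1 and 518.0 in untreated cells. These are the highest correlations among all tested genes, over points that share arrays, and they are given as a description. Among the members themselves the correlation farthest from 0 was that of MET with GRB2 (r = -0.894). In untreated cells and at each HGF time, the low-score array read higher for MET and lower for GRB2 than the high-score array, and the part of this in the correlation was not tested.

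Beyond these 10 genes, 97 other genes of the MET pathway were listed, of which 77 were on the arrays and 61 were detected. None of the 61 was called by limma against untreated cells, at 1 h, 6 h, 24 h or with ITGB4, beside 0%, 1.9%, 0% and 0.00713% of all probes. An ordinary pooled-variance test called none of the 61 either. Of all 14018 probes it called 0 at each HGF time and 1 with ITGB4, so it had little power to call any gene. At an unadjusted p under 0.05 there were 6 of the 61 at 1 h, 19 at 6 h, 2 at 24 h and 2 with ITGB4, against 13.5%, 16%, 5.71% and 0.835% of all probes. At 1 h the smallest p belonged to PIK3R1, the regulatory subunit of PI3-kinase (log2 -0.67 ± 0.21, HGF 1 h minus untreated, adjusted p = 0.22), which read 242.0 and 348.9 at 1 h, against 480.6 and 442.1 in untreated cells. ITGB1, the beta-1 integrin chain (-0.52 ± 0.20), and PTK2, focal adhesion kinase (-0.42 ± 0.16), followed with an adjusted p of 0.29 each. At 6 h the smallest belonged to MST1 (-1.04 ± 0.25, HGF 6 h minus untreated, adjusted p = 0.054), GAB2 (-0.70 ± 0.17, adjusted p = 0.057) and PLAUR (0.66 ± 0.16, adjusted p = 0.057). With array class as a block in the limma fit, 9 of the 61 were called at 6 h, these 3 among them (adjusted p = 0.0048 for MST1 and 0.016 for GAB2 and PLAUR). Leaving out either 24 h array, which stands in neither group of that comparison, gave 6 called genes in place of 0. At 24 h the smallest belonged to INPPL1, CBLB and PIK3R1 (adjusted p = 0.86 each), and with ITGB4 to PTPRF, RAPGEF1 and NF1 (adjusted p = 1 each).

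Between 24 h and 6 h of HGF, 6 of the 61 pathway genes rose, 1 fell and 54 did not pass, beside 8.31% of all probes called, 4.24% higher and 4.07% lower. These 7 are named because they were called, after their values were seen. Of the receptors, ERBB3, a partner of several receptor kinases, read 401.4 and 400.2 at 24 h, against 272.9 and 238.4 at 6 h (log2 0.65 ± 0.16, 24 h minus 6 h, adjusted p = 0.027). Of 5 detected genes listed with HGF processing, MST1 and PLAUR were called in opposite directions, and HPN, SPINT1 and F12 did not pass (log2 -0.08, 0.03 and 0.22, 24 h minus 6 h). MST1, which encodes the HGF-like protein that binds the related receptor MST1R and is no protease of HGF, read 355.7 and 210.4 at 24 h, against 119.6 and 88.8 at 6 h (1.41 ± 0.25, adjusted p = 0.0052). The gene has a near-identical copy, whose transcripts the probe may also read, and its lowest value of 88.8 lies near the detection limit, though it was detected on all 10 arrays. PLAUR, the urokinase receptor, read 162.2 and 166.1 at 24 h, against 233.7 and 257.9 at 6 h (-0.58 ± 0.16, adjusted p = 0.045).

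Of 13 other adaptors, 2 rose between 6 h and 24 h and 11 did not pass. GAB2, the docking protein related to GAB1, read 4049.2 and 4669.6 at 24 h, against 2396.6 and 2322.6 at 6 h (log2 0.88 ± 0.17, adjusted p = 0.0082), and INPPL1, the lipid phosphatase SHIP2, read 659.0 and 887.6, against 450.6 and 493.9 at 6 h (0.70 ± 0.18, adjusted p = 0.029). GAB2 was thus read well above the detection limit on these arrays, while GAB1 was detected on none. Of 15 genes of receptor down-regulation, 2 rose. CBLB, the ubiquitin ligase related to CBL, read 421.1 and 371.0 at 24 h, against 209.2 and 198.1 at 6 h (0.96 ± 0.16, adjusted p = 0.0040), and PTPRK, a receptor phosphatase, read 230.3 and 180.5, against 132.7 and 125.8 (0.66 ± 0.19, adjusted p = 0.046). None of 7 genes of the RAS-ERK arm and 16 of the PI3K and other arms was called. For CBLB, GAB2, ERBB3, INPPL1, MST1 and PTPRK the 6 h arrays also read below both untreated arrays. These genes were picked for a rise from 6 h to 24 h, which favours low 6 h arrays. Over all probes, the 6 h and untreated arrays did not overlap, in either direction, for 44.6%, and 11.1% had 6 h arrays below all others.

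The 7 calls rested in part on single arrays. Without HGF 6 h replicate 2, 1 of the 61 genes was called, without HGF 6 h replicate 1, 3, and without either HGF 24 h array, 4. CBLB was called in all 20 alternatives that were run, GAB2 and MST1 in 18, ERBB3 and INPPL1 in 15, PTPRK in 11 and PLAUR in 10. The median difference of the 61 genes between 24 h and 6 h was 0.09, beside 0 over all probes.

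**Figure D4:**
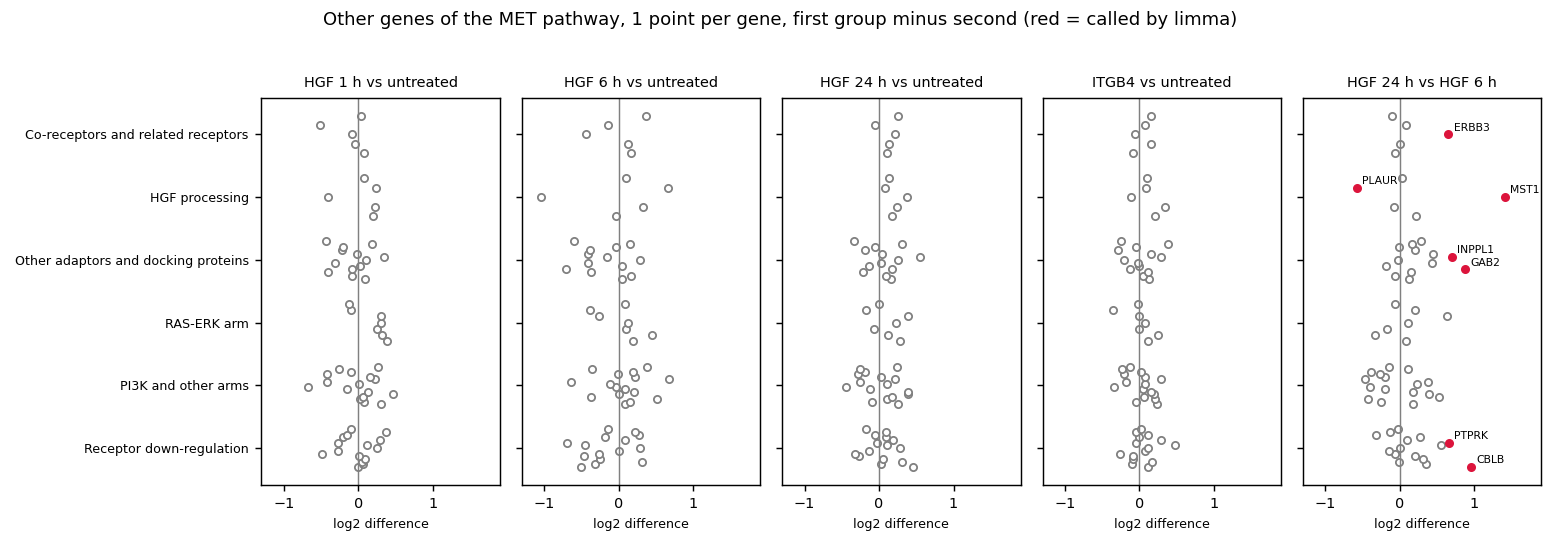
Log2 difference (horizontal axis, the group named first minus the group named second) of the 61 detected other genes of the MET pathway, 1 point a gene, by sublist (vertical axis) in 5 comparisons, with red points for genes called by limma. Called genes appear only in the panel of HGF 24 h against HGF 6 h, where MST1 (1.41) and CBLB (0.96) lie farthest to the right and PLAUR (-0.58) to the left.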

How the data were processed

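RNA of 10 samples was hybridised to Illumina Human-8 arrays. The labels gave each sample's treatment and replicate number, and the design text describes the pairs as biological replicates. The deposited scanner tables hold, for each probe, a mean intensity on a linear scale (without background subtraction or normalisation, array medians 74.9 to 96.9), a detection score and a bead number, and the submitters' processing notes name BeadStudio 1.5.1.3. A second deposited table, in which the authors had subtracted background from the intensities and applied rank-invariant normalisation, served as an alternative only, since its column of ITGB4 replicate 2 did not follow that sample's scanner table (Spearman correlation 0.968, against 1 for the other 9).

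Of 24136 probes, 22 controls and 9 without an intensity on some array were set aside. Intensities were quantile normalised and put on the log2 scale. The 14018 probes with a score of at least 0.99 on at least 1 array entered a limma fit (version 3.58.1, R 4.3.3) of 5 group means, with 5 residual degrees of freedom and 8.16 from the prior. In each of 6 comparisons a call required an adjusted p under 0.05 (Benjamini-Hochberg, all tested probes). The fit was tested on simulated data with independent noise for each probe and array. These data held no shift between array classes or replicates, so that test does not cover such a shift. The number of arrays limits the precision. The p-values set each difference against the spread within groups, pooled over the 5 groups and moderated by that of all tested probes. They cover these samples only. Genes were named from the platform annotation, with symbols updated by Entrez number, and all 10 genes matched. For a pathway gene with several kept probes, the brightest was used. All member probes were named, with the called pathway genes of each comparison with untreated cells (at most 6) or, where none was called, the 3 with the smallest p. The files state no genome build, so sequences were taken from RefSeq by symbol, and 5 member genes had a promoter window. Alternatives changed the normalisation, background correction, filter, floor, source of values, blocks, test and arrays. The members and lists were chosen with earlier results of these data known.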

Additional observations from a re-analysis of the deposited data

Results flagged for a closer look

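The mean of the common SHC1 probe (GI_34147725-A) lay on opposite sides of untreated cells at different HGF times. No difference from untreated cells was called (limma adjusted p = 0.67 at 1 h, 0.35 at 6 h and 0.94 at 24 h). Both 1 h arrays read above and both 6 h arrays below both untreated arrays, a pattern that 6.81% of all tested probes had in 1 direction or the other. The difference between the 2 effects was -0.49 (log2, 6 h minus 1 h, from 0.18 at 1 h and -0.31 at 6 h). Both 24 h arrays read above the untreated arrays again, and the difference between the 24 h and the 6 h effect was 0.48 (24 h minus 6 h). With limma neither was called over all probes (adjusted p = 0.087 and 0.073). The effects share the untreated arrays, which cancel in these differences. Both differences are the comparisons between HGF times given above, and they share the 6 h arrays.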

How the results depend on the processing

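Of 834 combinations of a member probe's difference and an alternative setting, 799 kept their side of the threshold within the spread between replicates, 29 moved by more than that without a call and 6 became calls. In 44 of the 834 the sign was opposite to that reported, in 23 of the 42 results, with no call on either side and a reported size of at most 0.17. MET, for example, ran from -0.19 to 0.20 at 24 h against untreated cells and from -0.39 to 0.23 with ITGB4. The 6 were all the common SHC1 probe, so that the count of member probes called was 1 and not 0, in both comparisons between HGF times, with signals floored at the detection limit, with the replicate number as a block and with array class as a block. The floor left the differences of this probe as they were, and the 2 blocks split the untreated and HGF arrays in the same way. The count of member probes called was 0 in each comparison when any array was left out. The counts of other MET pathway genes were run under the same alternatives, which was chosen after seeing the data. For 6 h against untreated cells, 0 became 1 with a common median, normexp or the floor, 5 (of 58) with detection on both arrays of a group, 3 with the authors' value table or an intensity trend, 9 with array class as a block, and 0 to 6 with 1 array left out. For 6 h against 1 h, 0 became 1 with a common median, normexp, detection on both arrays, the floor or the trend, 3 with the value table, 6 with array class as a block, and 0 to 1 with 1 array left out. For 24 h against 6 h, 7 became 12 with array class as a block, 1 with an ordinary pooled-variance test, and 1 to 7 with 1 array left out.

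Replicate numbers were not taken as pairing the samples, because the labels name no shared batch and the replicate differences did not correlate in every pair of groups, with 8 of 10 pairs over 0.1 and the others at 0.062 (1 h with 24 h) and -0.063 (1 h with ITGB4). Untreated cells, 6 h and 24 h correlated at 0.59 to 0.66. With the replicate number as a block, the counts of pathway genes called were 8 for 6 h against untreated cells, 9 for 6 h against 1 h and 12 for 24 h against 6 h. Over all probes the block gave 427 calls at 1 h in place of 0, 1089 at 6 h in place of 267, 1871 for 6 h against 1 h in place of 654 and 2245 for 24 h against 6 h in place of 1165. Array class gave 0 at 1 h and 1066, 1690 and 2163 for the last 3, and the ordinary test 0 at 1 h and 0, 0 and 107. At 6 h the value table gave 468 and detection on both arrays 407, and for 6 h against 1 h the floor gave 337. With 1 array left out the calls over all probes ran from 0 to 490 at 6 h, 0 to 1037 for 6 h against 1 h, 308 to 1068 for 24 h against 6 h and 1 to 2 for ITGB4. The cause was not tested. MET, SOS1 and the SHC1 isoform probes lay near the detection limit of 89.6, which limits what their signals can show.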
